A study of Mus musculus with 6 samples.

Results

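Polyamine synthesis and the salvage of methionine were followed through 10 genes in hypothalamus of mice with a deletion of the SRC-1 gene. They were Odc1, Azin1, Amd1, Amd2, Srm, Sms, Sat1, Mtap, Enoph1 and Adi1. The genes were taken by symbol from the deposited table of counts, which has 50559 genes, and all 10 were present and had enough counts to be tested. SRC-1 (steroid receptor coactivator 1, encoded by Ncoa1) is a coactivator of nuclear receptors. The groups were 3 libraries of hypothalamus labelled SRC1 KO, from mice with a deletion of the SRC-1 gene, and 3 labelled WT, from wild-type control mice. The labels do not state strain, age, sex or the part of Ncoa1 that was deleted. They do not say whether each library is a separate animal either, so p-values measure the spread between libraries, which may be technical.

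Polyamines are small positively charged molecules that bind nucleic acids, tune ion channels and serve growth and translation. Ornithine decarboxylase, made from Odc1, turns ornithine into putrescine, and S-adenosylmethionine decarboxylase, made from Amd1, provides the aminopropyl groups that spermidine synthase (Srm) and spermine synthase (Sms) add to it. Each addition leaves methylthioadenosine, which the methionine salvage pathway turns back into methionine. Mtap encodes the enzyme that opens this pathway, and Enoph1 and Adi1 encode later ones.

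The list was put together with results of the same comparison, KO against WT, already known. Amd2 and Adi1 were named among the genes higher in the KO in that comparison, so the fold changes of the list are a description and support nothing further. Counts of gene copies, neighbouring genes and other pathway genes are given beside them, but are not independent of that choice. The likeness of Amd2 to Amd1 and the chromosome shared with Ncoa1 were known when the list was made. The other pathway genes are those left once the 10 were taken.

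Amd2 and Amd1 have almost the same sequence, which bears on what a count of either gene can mean. Amd1 (chromosome 10, 40163454 to 40178184, minus strand, GRCm39) has 8 exons, while Amd2 (chromosome 10, 35584687 to 35587887, minus strand) is 1 unbroken exon. Aligned end to end, their exons were 99.35% identical, with 10 substitutions and 11 gap columns over 3208 columns. Of the substitutions, 1 lay in the coding sequence of 1002 bases, G796C counted from the first coding base, with Amd1 first. The 61 bases around it are shown because no other position tells the 2 coding sequences apart, and the capital marks the base that differs.
Amd1, chr10:40166152-40166212, minus strand: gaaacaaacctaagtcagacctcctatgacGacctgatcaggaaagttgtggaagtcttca
Amd2, chr10:35586730-35586790, minus strand: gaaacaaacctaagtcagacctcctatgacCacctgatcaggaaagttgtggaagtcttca

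Upstream of the transcribed bases the likeness ended. The next pair of sequences gives 120 bases before and 30 bases after each annotated start, and shows where the copy begins. Capitals mark the longest run that both windows share, 28 bases.
Amd1, chr10:40178155-40178304, minus strand: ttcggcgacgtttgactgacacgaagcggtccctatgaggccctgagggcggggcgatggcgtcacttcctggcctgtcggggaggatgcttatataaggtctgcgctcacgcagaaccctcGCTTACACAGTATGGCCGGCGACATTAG
Amd2, chr10:35587858-35588007, minus strand: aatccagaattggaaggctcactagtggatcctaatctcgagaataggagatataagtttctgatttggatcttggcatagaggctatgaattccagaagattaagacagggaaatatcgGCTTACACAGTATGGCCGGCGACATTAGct
In the 120 bases before the shared run, 28.3% of positions matched when compared without gaps.

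Copies and other repeated sequence limit how much of a gene can be counted, since reads that map to several places were not counted. Counts were of read pairs, so the shares of single words below are only a rough guide. The share of 100-base words of the exons found nowhere else in the genome was 22.2% for Amd1 and 22.9% for Amd2. It was 64.1% for Sms, 73.4% for Odc1 and 89.7% for Sat1, and 99.3% or more for Azin1, Srm, Mtap, Enoph1 and Adi1. The labels do not state the read length. At 150 bases the shares were 31.8% for Amd1, 35.5% for Amd2 and 89.5% for Odc1. Exons of Enoph1 overlapped those of Hnrnpdl over 28.1% of their bases, and no other of the 10 genes shared exon bases with a neighbour.

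The libraries held 36613507 to 46755553 counts, and 20257 genes were tested. Ncoa1 averaged 38.8 ± 1.54 CPM in KO libraries and 126.5 ± 3.94 CPM in WT libraries (CPM, counts relative to library size after TMM scaling; SD, n = 3 each). All 9 hypothalamic marker genes were detected in all 6 libraries, but they did not move together, with 4 log2 fold changes positive, 5 negative and 0 passing. Pomc averaged 14.0 ± 14 CPM in the KO against 67.3 ± 15 CPM in WT, and Agrp 1.81 ± 0.739 against 7.28 ± 4.83 CPM (SD, n = 3 each). Hcrt averaged 166.1 CPM in the KO against 120.3 CPM in WT, and Pmch 313.5 against 226.6 CPM. Whether the dissected regions differed between the groups was not tested. Summed oligodendrocyte markers were higher in the KO, at 6580 to 8800 CPM against 4050 to 5170 CPM in WT, and 6 of 9 passed the test. Summed ependymal and tanycyte markers were lower, at 67.5 to 85.3 CPM in KO against 185 to 199 CPM in WT, with 5 of 8 passing. Pituitary markers (1.8 to 12.1 CPM in KO, 10.2 to 22.1 CPM in WT, with Gh and Prl at 0 in some libraries) had 1 lower call in 5 tested genes. Meningeal markers (26.4 to 31 CPM in KO, 39.4 to 106 CPM in WT) had 1 in 5, and choroid plexus markers (24.3 to 33.3 CPM in KO, 44.4 to 47.8 CPM in WT) had 0 in 5. Markers of neurons, astrocytes, microglia and endothelium had no member past the threshold. In bulk tissue, fewer cells of a type and less RNA per cell cannot be told apart, and the part of these shifts in the values below was not tested.

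In the KO, Adi1 and Amd2 were higher, and the other 8 genes did not pass the adjusted threshold of the fit across all genes (edgeR's quasi-likelihood test, Benjamini-Hochberg adjusted p under 0.05). That is 2 of 10 genes, both higher, where 0.834% of all tested genes passed in either direction, 0.242% higher and 0.592% lower. Since the list was built around those calls, nothing is read from that share. The median log2 fold change of the 10 genes was 0.076, with 8 values positive and 2 negative, against 0.004 over all tested genes. In 5 of the 10 the groups did not overlap, 4 higher (Adi1, Amd1, Amd2, Mtap) and 1 lower (Odc1), where 17.6% of all tested genes had groups that did not overlap.

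**Figure D1:**
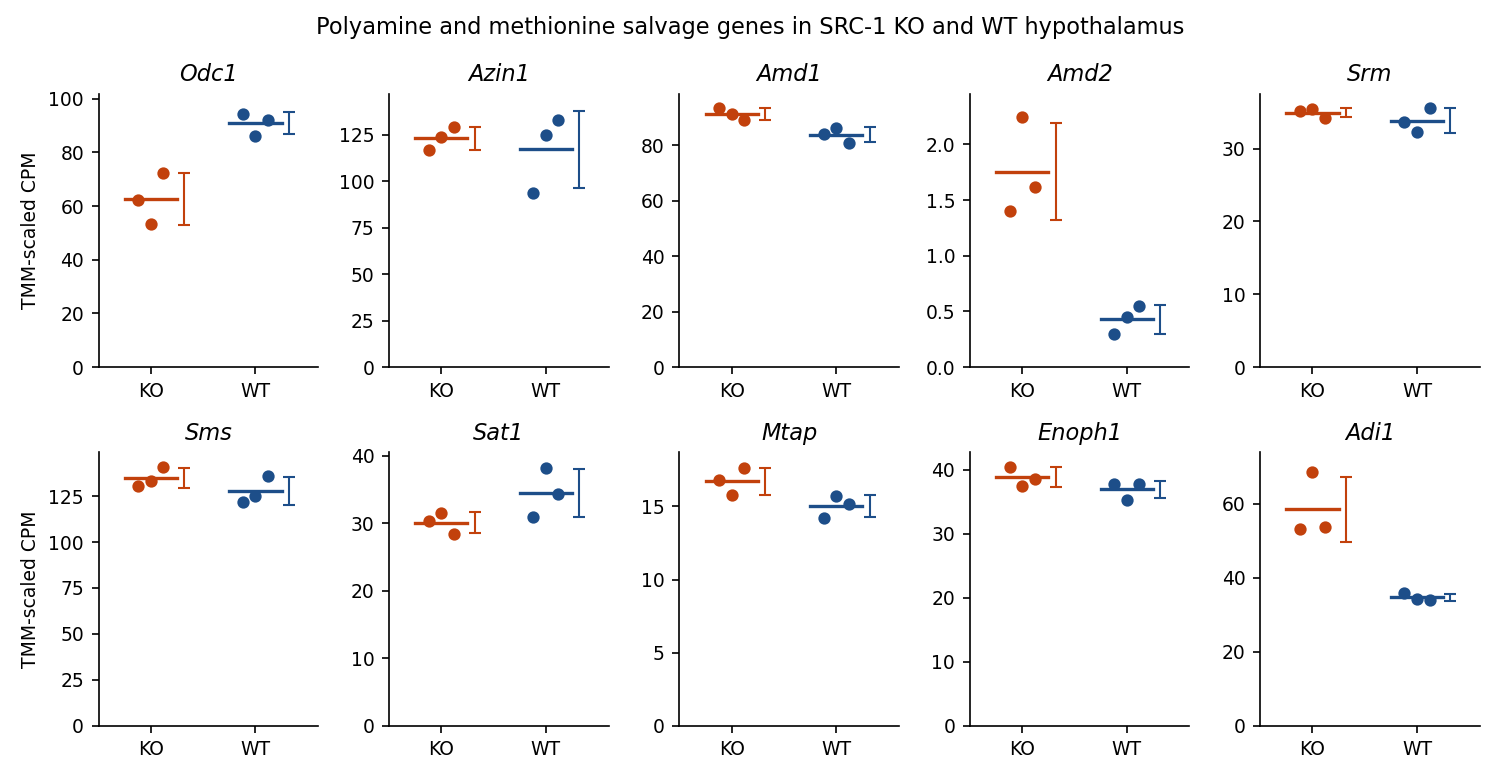
TMM-scaled CPM of the 10 genes in each library (points), with the mean (line) and SD (bar) of 3 KO and 3 WT libraries and each axis starting at 0. Adi1 and Amd2 lie higher in every KO library, Odc1 lies lower in every KO library, and the other panels differ by 12.7% or less between the means.

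Odc1 came first in the pathway and was the gene with the larger of the 2 negative values. It had 62.4, 53.2 and 72.4 CPM in KO libraries and 94.2, 86.2 and 92.1 CPM in WT libraries. Every KO library lay below every WT library, and the KO values were the more scattered, with a coefficient of variation of 15.3% against 4.55%. The mean was 62.6 ± 9.58 CPM in the KO and 90.8 ± 4.14 CPM in WT (SD, n = 3 each), 31% lower in the KO. On the log2 scale the difference was -0.54 ± 0.10 (SE), just outside the threshold (adjusted p 0.0516, edgeR). Odc1 passed in 5 of 15 alternatives, among them DESeq2 and the fit without KO replicate 3, its highest KO library (adjusted p 0.0185). It did not pass with limma-voom (adjusted p 0.0619), nor with any of the other 5 libraries left out (0.0553 to 0.209), nor without WT 1 and KO 1 together (0.447).

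Odc1 (chromosome 12, 17594809 to 17601503, plus strand) has 8 near-identical copies elsewhere in the genome, each covering at least 60% of its exons at 90% identity or more. One of them, on chromosome 5 and listed in the table as Gm7993, was counted very differently in the groups. Gm7993 had 162, 286 and 199 counts in KO libraries and 12, 14 and 14 counts in WT libraries. It averaged 5.14 ± 1.81 CPM in the KO and 0.334 ± 0.0379 CPM in WT (SD, n = 3 each). In log2 terms it was higher by 3.93 ± 0.29 (SE; adjusted p 0.000796, edgeR). The copies were sought by sequence after the data had been seen, and Gm7993 was singled out among them after its values were seen. It was the gene with the second lowest p of all those tested.

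The alignment of Odc1 with this copy spanned 2052 columns at 96.2% identity and held 40 substitutions, 31 of them in the coding sequence of Odc1. The 60 coding bases with most differences, 5 in all, are shown because they mark a stretch where reads of Odc1 and its copy can be told apart, and capitals mark the bases that differ.
Odc1, chr12:17597951-17598010, plus strand: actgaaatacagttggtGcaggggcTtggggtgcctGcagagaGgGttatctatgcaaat
Gm7993, chr5:96122376-96122435, plus strand: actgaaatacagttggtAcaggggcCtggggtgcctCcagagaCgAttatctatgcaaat
Of the 100-base words of Odc1, 15.3% also occur in the copy without a change. GENCODE lists Gm7993 as a processed pseudogene.

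Counts of Gm7993 made up 5.83%, 11.9% and 5.68% of the sum of Odc1 and Gm7993 in KO libraries and 0.311%, 0.427% and 0.365% in WT libraries. The KO library with the lowest Odc1, replicate 2, had the highest share. The sum itself was still lower in the KO, at 67.8 ± 8.27 CPM against 91.2 ± 4.10 CPM in WT (SD, n = 3 each). With the counts of 8 table genes that overlap the copies added to Odc1, Igh left out, the difference was -0.41 ± 0.083 on the log2 scale (SE; adjusted p 0.0544, edgeR). Besides Gm7993, the table genes Gm7278, Gm15470, Gm17709, Rps7-ps2 and the immunoglobulin region Igh overlap these copies and had enough counts to be tested, and none passed. Whether reads of Odc1 were assigned to Gm7993 in the KO was not tested.

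Amd2 shows the same arrangement of a well-counted gene beside a sparsely counted copy. It had 59, 89 and 74 counts in KO libraries and 12, 17 and 23 counts in WT libraries, so the lowest KO library lay above the highest WT library. On the scaled level it averaged 1.76 ± 0.435 CPM in the KO and 0.432 ± 0.130 CPM in WT (SD, n = 3 each), a ratio of 4.07 and a log2 fold change of 2.01 ± 0.30 (SE). This fold change is part of why Amd2 is on the list, so no p is given for it. It did not pass without WT replicate 1.

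Amd1 had far higher levels. Its 93.2, 91.2 and 89.0 CPM in KO libraries lay above the 83.8, 86.3 and 80.9 CPM of WT libraries, without overlap. The mean was 91.2 ± 2.09 CPM in the KO and 83.6 ± 2.71 CPM in WT (SD, n = 3 each), a log2 fold change of 0.12 ± 0.061 (SE) that did not pass (adjusted p 0.441, edgeR). Amd2 supplied 1.49%, 2.40% and 1.79% of the counts of the pair in KO libraries, against 0.350%, 0.518% and 0.680% in WT libraries. These shares rest on the counts for which Amd2 was put on the list, so they describe the pair and are no further evidence. Whether reads of Amd1 were assigned to Amd2 was not tested. In KO replicate 1, the KO library with the lowest share, the exact binomial 95% interval was 1.13% to 1.91%. In WT replicate 3, the WT library with the highest share, it was 0.431% to 1.02%. These intervals cover counting error within a library only and do not compare the groups.

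Added into 1 row, Amd1 and Amd2 averaged 92.9 ± 2.05 CPM in the KO and 84.1 ± 2.66 CPM in WT (SD, n = 3 each). The log2 fold change of this sum was 0.14 ± 0.061 (SE) and did not pass (adjusted p 0.348, edgeR). The higher counts of Amd2 thus amounted to a small part of the decarboxylase counts. Other annotated copies of Amd1 carried few counts, at most 17 in any library for Amd-ps7, Amd-ps1 and Amd-ps6 and 0 for Amd-ps2 and Amd-ps5. Exons of the immunoglobulin region Igk also overlap the copies listed as Amd-ps2 and Amd-ps5. Reads on overlapping genes went uncounted, so the 0 of these copies cannot tell whether reads fell there.

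**Figure D2:**
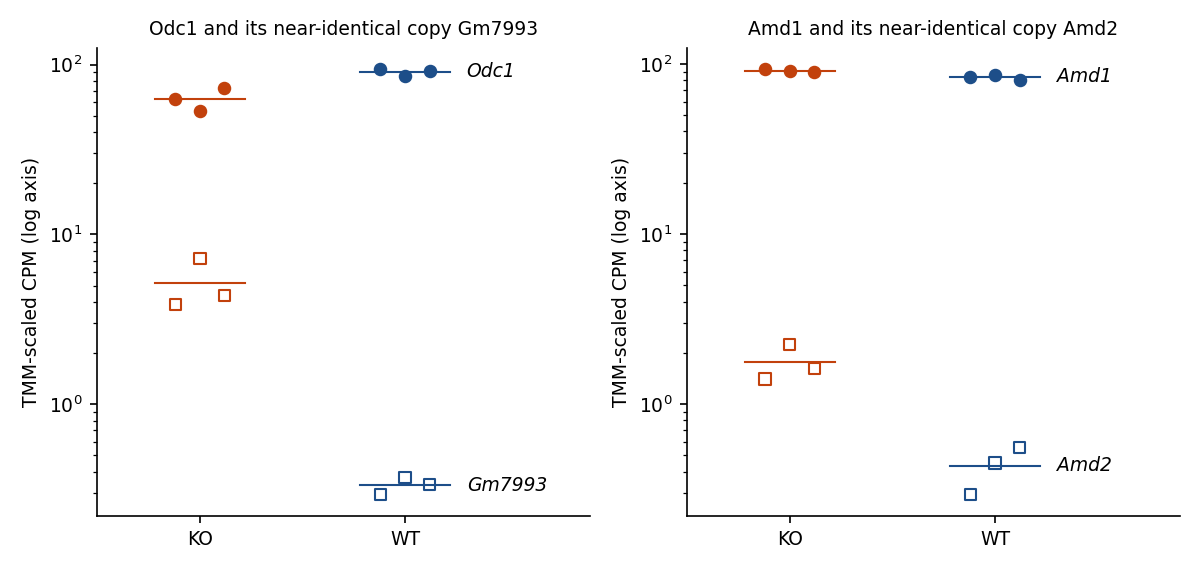
TMM-scaled CPM on a log axis of Odc1 with Gm7993 (left) and Amd1 with Amd2 (right) in each KO and WT library, filled circles for the gene, open squares for the copy and lines for group means. Gm7993 averaged 5.14 CPM in the KO against 0.334 CPM in WT, Amd2 averaged 1.76 CPM in the KO against 0.432 CPM in WT, and the gene beside each stayed above 50 CPM in all 6 libraries.

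The synthases and the back-conversion enzyme came next. Spermidine synthase, Srm (chromosome 4, 148675970 to 148679076, plus strand), had 35.2, 35.5 and 34.2 CPM in KO libraries and 33.6, 32.3 and 35.6 CPM in WT libraries, with overlapping groups. Its log2 fold change was 0.05 ± 0.067 (SE; adjusted p 0.855). Spermine synthase, Sms (chromosome X, 156226847 to 156275283, minus strand), had 130.4, 133 and 140.9 CPM in KO libraries and 121.7, 124.9 and 136.2 CPM in WT libraries, also overlapping, with 0.08 ± 0.069 (adjusted p 0.731). Neither synthase differed by more than 5.64% between the means.

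Sat1, whose product acetylates spermidine and spermine for export or breakdown, lies on chromosome X (153996122 to 153999445, minus strand). It had 30.4, 31.5 and 28.4 CPM in KO libraries and 31.0, 38.2 and 34.4 CPM in WT libraries. The ranges met, since WT replicate 1 lay below the highest KO library. Its log2 difference, -0.20 ± 0.086 (SE), did not pass (adjusted p 0.37, edgeR).

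Azin1, antizyme inhibitor, frees ornithine decarboxylase from its antizymes (chromosome 15, 38487674 to 38523506, minus strand). It had 116.8, 123.8 and 129.2 CPM in KO libraries and 93.7, 125.2 and 133 CPM in WT libraries. WT replicate 1 stood apart from the other 2 WT libraries, and the KO values lay inside the WT range. The log2 fold change was 0.07 ± 0.12 (SE; adjusted p 0.881), and -0.07 ± 0.081 without WT replicate 1.

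Of the salvage genes, Adi1, which encodes the acireductone dioxygenase late in the pathway, was the 1 that stood out (chromosome 12, 28725206 to 28732174, plus strand). It had 53.3, 68.7 and 53.6 CPM in KO libraries and 35.8, 34.4 and 33.9 CPM in WT libraries. All KO libraries lay far above the WT libraries, which were within 2 CPM of each other, and KO replicate 2 was the highest. The mean was 58.5 ± 8.83 CPM in the KO and 34.7 ± 0.988 CPM in WT (SD, n = 3 each), 68.7% higher in the KO. The log2 fold change was 0.75 ± 0.099 (SE), given without a p because Adi1 was chosen for it. All exon words of 100 bases in Adi1 were unique in the genome, unlike those of Amd1, Amd2 and Odc1.

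Mtap, which encodes methylthioadenosine phosphorylase (chromosome 4, 89055607 to 89099327, plus strand), had 16.8, 15.8 and 17.6 CPM in KO libraries and 14.2, 15.7 and 15.2 CPM in WT libraries. The groups stood just apart, by less than 0.1 CPM. The log2 fold change was 0.15 ± 0.083 (SE; adjusted p 0.497, edgeR). Enoph1, which encodes an enolase-phosphatase (chromosome 5, 100186887 to 100216784, plus strand), had 40.5, 37.5 and 38.6 CPM in KO libraries and 37.8, 35.4 and 37.7 CPM in WT libraries. The groups overlapped, with 0.07 ± 0.067 (adjusted p 0.744).

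**Figure D3:**
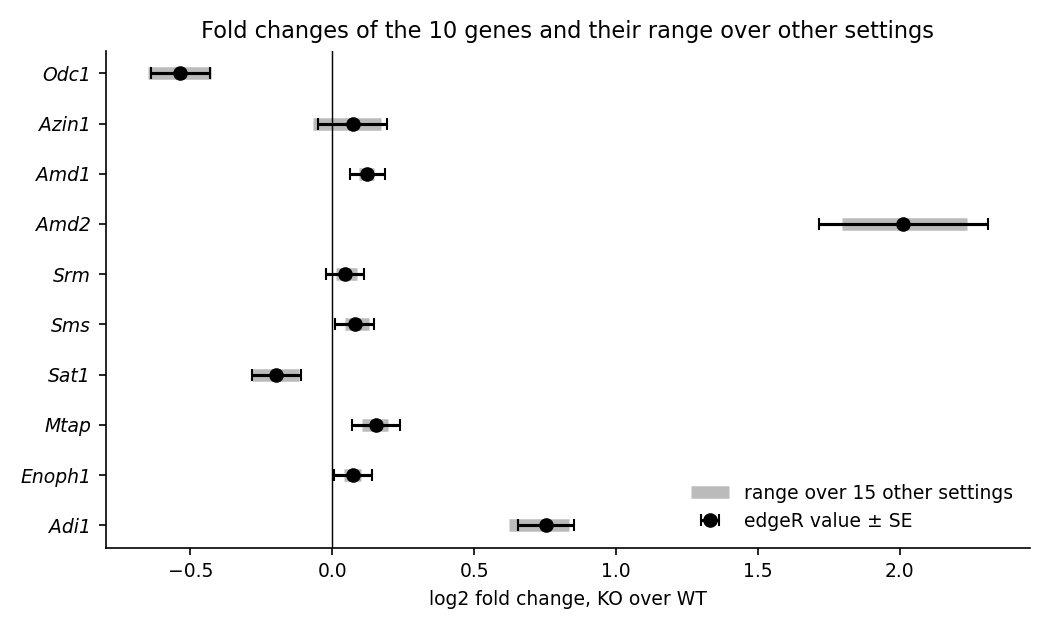
Log2 fold changes of the 10 genes, KO over WT, with the SE (black) and the range over 15 other settings of scaling, filter, libraries and test (grey). Amd2 ranged from 1.80 to 2.24, Adi1 from 0.62 to 0.83 and Odc1 from -0.65 to -0.43, and the range of Azin1 alone crosses 0.

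Between genes, levels can be set side by side only per length of exon. On the scale of CPM per kilobase, KO libraries ran from Sms (35.5 ± 1.44), Adi1 (34.9 ± 5.27), Amd1 (28.4 ± 0.652), Srm (26.3 ± 0.490) and Odc1 (23.99 ± 3.67) to Sat1 (18.3 ± 0.939), Azin1 (13.4 ± 0.674), Enoph1 (12.4 ± 0.485), Mtap (6.54 ± 0.366) and Amd2 (0.549 ± 0.136) (SD, n = 3). In WT libraries the order was Odc1 (34.8 ± 1.58), Sms (33.6 ± 2.01), Amd1 (26.1 ± 0.846), Srm (25.5 ± 1.26), Sat1 (20.9 ± 2.18), Adi1 (20.7 ± 0.590), Azin1 (12.8 ± 2.27), Enoph1 (11.8 ± 0.438), Mtap (5.88 ± 0.286) and Amd2 (0.135 ± 0.0408). In WT, Odc1 and Sms, Amd1 and Srm, Sat1 and Adi1, and Azin1 and Enoph1 were neighbours whose ranges overlapped, so their order is not fixed by these libraries. In the KO, the ranges of Sms and Adi1, Srm and Odc1, and Azin1 and Enoph1 overlapped, so their order is not fixed either. Odc1 ran from 20.4 to 27.7 CPM per kilobase in KO libraries and Srm from 25.8 to 26.7. Reads of Amd1, Amd2, Sms, Odc1 and Sat1 that map to several places are missing from this scale. Reads of Enoph1 on the 28.1% of its exon bases shared with Hnrnpdl are missing too. In WT, 91.9% of tested genes had a lower level per kilobase than Odc1, and 7.68% had a lower one than Amd2.

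Odc1 and Adi1 share chromosome 12 with the deleted gene. The start of Odc1 lies 13.3 Mb and that of Adi1 24.4 Mb from the start of Ncoa1. In this and the distances below, start means the lowest coordinate of a gene, whatever its strand, and Ncoa1 is on the minus strand. Between Ncoa1 and Odc1, 2 of 69 tested genes passed the adjusted threshold, and between Ncoa1 and Adi1 8 of 139 passed, 7 higher and 1 lower in the KO, against 0.834% of all tested genes. All 8 carry symbols of predicted genes or clones, and no named gene in between passed. Log2 fold changes of the 7 higher ones ran from 2.39 (Gm32719) to 9.66 (Gm9282). The counts behind these values are not given here, so how many reads they rest on cannot be judged. Over the whole of chromosome 12, 9 genes were higher and 7 lower among 788 tested, with Adi1 among the higher and Ncoa1 among the lower. What the position of Odc1 and Adi1 adds to their values was not tested.

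No gene next to Adi1 passed the threshold. The 5 nearest named neighbours, within 81 kb, were Rnaseh1, a ribonuclease (-0.08 ± 0.10), Rps7, a ribosomal protein gene (-0.16 ± 0.090), Colec11, a collectin (-1.10 ± 0.34), Trappc12, of a vesicle tethering complex (-0.03 ± 0.068), and Eipr1 (-0.09 ± 0.098), as log2 fold changes with SE and adjusted p from 0.189 to 0.927. The unnamed neighbour had few counts and did not pass either. Near Odc1, Nol10 (0.10 ± 0.071), Atp6v1c2 (-0.39 ± 0.22), Pdia6 (-0.26 ± 0.084) and Hpcal1 (-0.11 ± 0.095) did not pass, with adjusted p from 0.197 to 0.730 in edgeR, nor did a pair of unnamed genes. Near Amd2, where the closest tested gene started 798 kb away, Hs3st5, Hdac2, Marcks, Frk, Nt5dc1 and Tspyl4 did not pass, with log2 fold changes from -0.95 (Frk) to 0.11 (Marcks).

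**Figure D4:**
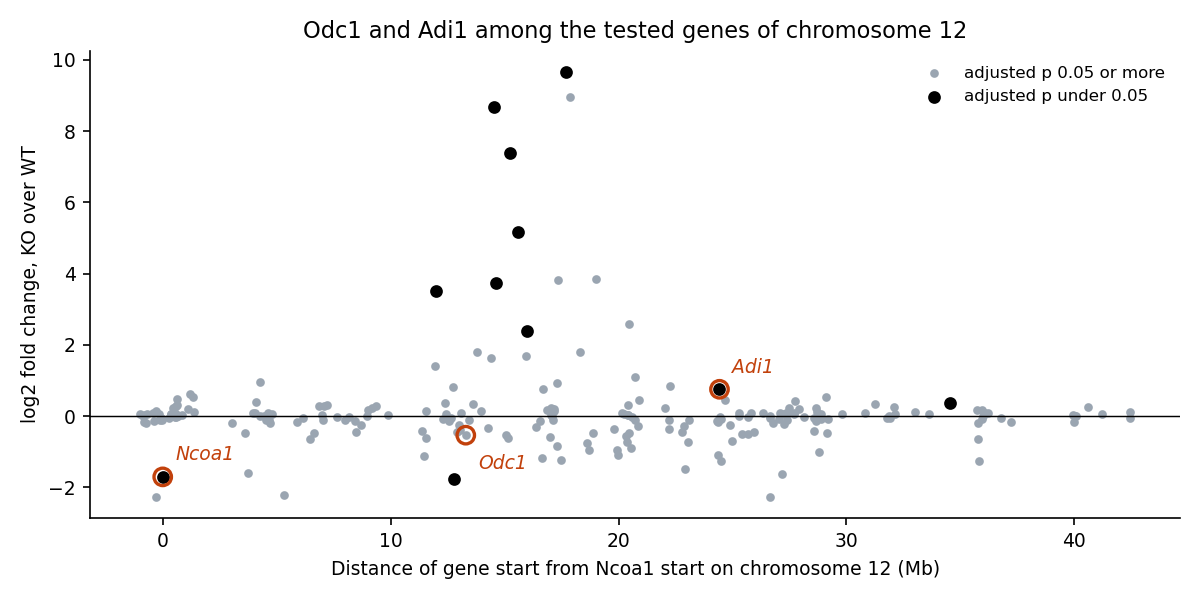
Log2 fold change, KO over WT, of the tested genes in the stretch of chromosome 12 around Ncoa1, Odc1 and Adi1, against the distance of their start from that of Ncoa1 in Mb, with black points for adjusted p under 0.05 and rings around Ncoa1, Odc1 and Adi1. Start is the lowest coordinate of a gene, whatever its strand. Odc1 lies at 13.3 Mb and Adi1 at 24.4 Mb, with 8 genes past the threshold between Ncoa1 and Adi1, all with symbols of predicted genes or clones.

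The rest of the pathway was read from 43 further genes chosen by role, of which 41 were tested. None passed in either direction, against 0.834% of all tested genes, and 4 had an unadjusted p under 0.05 (edgeR), against 13% of all tested genes. Their median log2 fold change was -0.003, with 19 values positive and 22 negative. DESeq2, limma-voom with sample quality weights and edgeR with no filter each called 1 higher and 0 lower, and limma-voom called 0.

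None of 4 tested regulators of ornithine decarboxylase passed. Oaz1 and Oaz2 encode antizymes, which send the enzyme to the proteasome. Oaz1 averaged 144.1 ± 3.86 CPM in the KO and 144.3 ± 8.16 CPM in WT, and Oaz2 averaged 144.5 ± 6.03 CPM in the KO and 148.7 ± 11.8 CPM in WT (SD, n = 3 each). Azin2, a second antizyme inhibitor, had a log2 fold change of 0.10 ± 0.070 (SE; adjusted p 0.645), and the sparse Oaz3 did not pass. Their values ran from -0.04 to 0.10.

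No breakdown, transport or ornithine supply gene passed either. The spermine oxidase Smox (-0.12 ± 0.079, adjusted p 0.599) and the acetylpolyamine oxidase Paox (0.13 ± 0.14, adjusted p 0.796) did not pass. Of 6 transport genes, the lysosomal polyamine exporter Atp13a2 had 0.12 ± 0.076 (adjusted p 0.575). The cationic amino acid carrier Slc7a1 had -0.18 ± 0.080, with an unadjusted p of 0.0488 and an adjusted p of 0.383 in edgeR. Of 6 genes of ornithine supply, Arg2, the mitochondrial arginase, had -0.18 ± 0.17 and Ass1, argininosuccinate synthase, -0.08 ± 0.085, with adjusted p of 0.746 and 0.787.

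Among the genes for hypusine, the spermidine-derived residue of the translation factor eIF5A, Eif5a2 came closest to the threshold. It averaged 81.8 ± 1.76 CPM in the KO and 67.5 ± 3.40 CPM in WT (SD, n = 3 each), and its 3 KO libraries lay above its 3 WT libraries. The log2 difference of 0.28 ± 0.064 (SE) did not pass (adjusted p 0.0807, edgeR). Its relative Eif5a had -0.03 ± 0.079, and Dhps, the first enzyme of hypusine synthesis, had -0.05 ± 0.068 (adjusted p 0.858).

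Other methionine salvage genes included Got1 and Kyat3, aminotransferases that can act in the last step. Got1 averaged 363.2 ± 11.8 CPM in the KO and 320.5 ± 19.7 CPM in WT (SD, n = 3 each), which did not pass (log2 difference 0.18 ± 0.072, SE; adjusted p 0.312). Kyat3 had 0.25 ± 0.14 (adjusted p 0.499). Mri1 and Apip, whose enzymes act between Mtap and Enoph1, had 0.001 ± 0.093 and -0.03 ± 0.11. In the methionine cycle, the methionine synthase Mtr had -0.24 ± 0.10 (adjusted p 0.338) and the glycine methyltransferase Gnmt -0.72 ± 0.45 (adjusted p 0.596). Gnmt had 38, 87 and 44 counts in KO libraries and 120, 98 and 48 counts in WT libraries, and its log2 difference ran from -1.25 without KO replicate 2 to -0.47 without WT replicate 1. Mat2a, whose product makes S-adenosylmethionine, averaged 215.3 ± 8.89 CPM in the KO and 234.3 ± 24.8 CPM in WT (SD, n = 3 each).

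**Figure D5:**
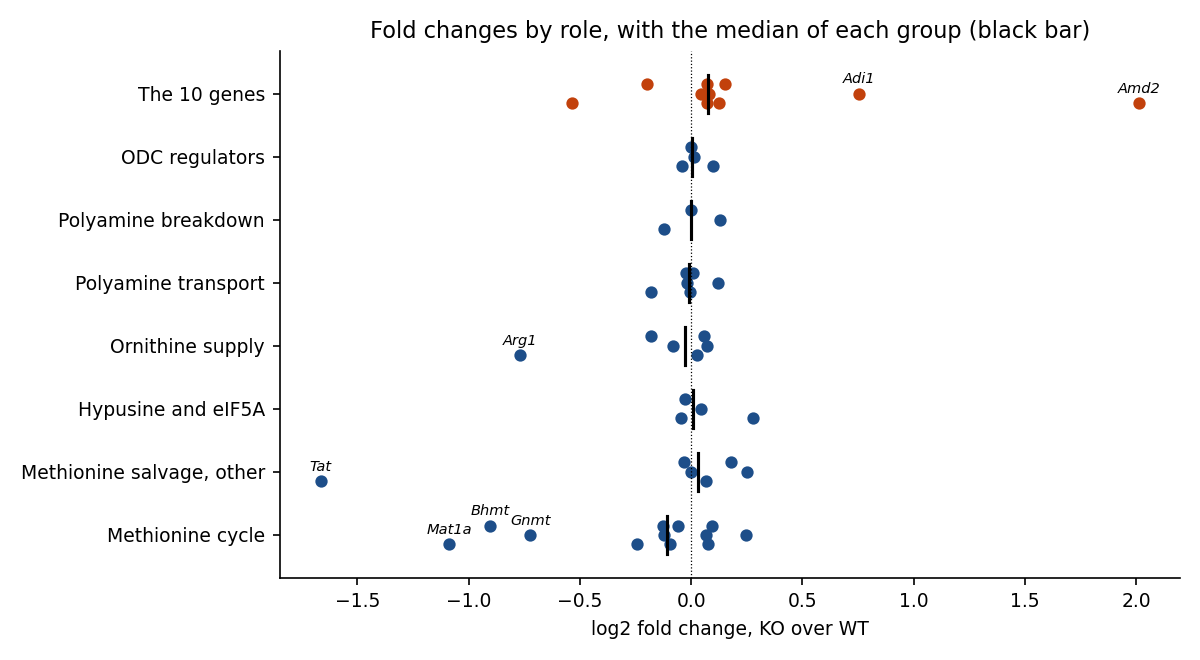
Log2 fold changes, KO over WT, of the 10 genes (orange) and of 41 other tested genes grouped by role (blue), 1 point per gene and a black bar at each median. The median of the 10 genes is 0.076, those of the other groups lie between -0.11 and 0.033, and none of the 41 genes passed the adjusted threshold.

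Over the 6 libraries, the genes whose profile was most like that of Adi1 were Zfp979, Pde8a, a phosphodiesterase of cyclic AMP, and Prrg1. They differed from it by a root mean square of 0.146, 0.162 and 0.168 in centred log2 CPM, the lowest among named genes of 15807 compared. For Amd2 the nearest were Rps7-ps3 (0.337), Tbr1, a transcription factor of cortical neurons (0.503), and Pisd-ps3 (0.580). Rps7-ps3 carries the symbol of a pseudogene of Rps7, the gene whose lowest coordinate lies 44.4 kb from that of Adi1. It had 4.69, 8.21 and 4.78 CPM in KO libraries and 1.79, 2.22 and 1.66 CPM in WT libraries, and Rps7 itself averaged 146.2 ± 15.8 CPM in the KO and 163.8 ± 12.4 CPM in WT (SD, n = 3 each). KO replicate 2 was the highest library for Adi1, Amd2 and Gm7993. It was also the highest for Rps7-ps3, Zfp979 and Pisd-ps3, which were picked for their likeness to Adi1 or Amd2, while Pde8a was highest in KO replicate 1, Prrg1 in KO replicate 3, and Tbr1 was lowest of the KO libraries in replicate 2.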

How the data were processed

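RNA from hypothalamus was sequenced in 3 KO and 3 WT libraries, made with RNeasy and Illumina TruSeq kits per the labels' protocols. The authors deposited raw counts of read pairs per gene. Reads were aligned with STAR 2.7.10a and counted by featureCounts, as the submitters' processing notes list. Per the file headers, exons came from the mm39 RefSeq annotation (GRCm39), and the featureCounts version is 2.0.0 there but 2.0.3 in the notes. Its command set no strand, multi-mapping or multi-gene option, so multi-mapping reads and reads on overlapping genes went uncounted. The exon length of each gene is a column of the deposited table, per the file headers.

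The members and lists were chosen with earlier results of these data known. Named genes were all members, other pathway genes with the lowest p per list (up to 2) or past the threshold, the 3 nearest tested neighbours on each side of Adi1, Odc1 and Amd2, and the 3 closest profiles. Oaz1, Oaz3, Eif5a, Mri1, Apip, Mat2a, the copies and their parent genes were named besides. Of 50559 rows, 0 lacked a name and 0 value columns were unused. edgeR 4.0.16 in R 4.3.3 was used with TMM scaling, the expression filter (minimum count 10), robust quasi-likelihood F-tests and Benjamini-Hochberg adjustment over 20257 genes. SE is the log2 fold change over the square root of F. Chi-square per degree of freedom was 8.87 or more for every pair of a group, so all libraries were kept. Tests were run on simulated data first. Exons were searched in GRCm39 with blastn 2.17.0, and coding bases come from GENCODE. Alternatives were RLE factors, library totals, other filters, left-out libraries, a replicate block, DESeq2 1.42.0 and limma 3.58.1.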

Additional observations from a re-analysis of the deposited data

How the results depend on the processing

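The number of the 10 genes called higher in the KO was 2 and moved in the fits without WT replicate 1 and without WT 1 and KO 1 together, where it was 1 and 0; with 1 library left out it ran from 1 to 2. The number called lower was 0, and 1 (Odc1) with no filter, DESeq2 and limma-voom with sample quality weights; with 1 library left out it ran from 0 to 1. Adi1 passed in 14 of 15 alternatives, Amd2 in 13 and Odc1 in 5. Adi1 and Amd2 were listed for their difference in these same libraries, so their counts describe the processing and do not support the difference. Azin1 changed sign without WT replicate 1 (-0.0685) and without WT 1 and KO 1 together (-0.0356), and ran from -0.0685 to 0.1729 with 1 library left out. Oaz2 changed sign without WT replicate 3 (0.0226), with a range of -0.0928 to 0.0226. The sum of Amd1 and Amd2 did not pass in any of 15. Other pathway genes called higher were 0, and 1 with no filter, DESeq2 and limma-voom with sample quality weights; 0 were called lower.

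Over all genes, 49 were higher and 120 lower. These were 15 and 51 with library totals alone, 350 and 616 with no filter, 21 and 63 with at least 1 CPM in 3 libraries, 6 and 23 without WT 1 and KO 1 together, 295 and 537 with DESeq2, and 135 and 266 under limma-voom's quality weights. Limma-voom gave 22 higher. With 1 library left out, higher calls ran from 13 to 123 and lower calls from 23 to 224.

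Same-numbered libraries did not deviate together throughout (correlations -0.206, 0.351 and 0.224), and 3 of 6 correlated best with their own number. With the replicate block, 1 of the 10 genes was called lower (Odc1) and 2 higher. Amd2 rests on 12 to 89 counts a library. The causes of these changes were not tested.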

Other observations

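Some enzymes of the wider pathway that are known from liver were counted in some libraries and sparse in others of the same group. Bhmt, betaine-homocysteine methyltransferase, had 0, 106 and 5 counts in KO libraries and 43, 146 and 10 counts in WT libraries. Mat1a, the liver form of methionine adenosyltransferase, had 4, 76 and 13 counts in KO libraries and 73, 108 and 8 counts in WT libraries. Arg1, the liver arginase, had 12, 52 and 14 counts in KO libraries and 58, 59 and 10 counts in WT libraries. Tat, tyrosine aminotransferase, had 3, 34 and 4 counts in KO libraries and 46, 62 and 17 counts in WT libraries. All 4 genes, and Gnmt, had more counts in KO replicate 2, WT replicate 1 and WT replicate 2 than in the other 3 libraries, and the groups overlapped for each. None of the 5 passed the test, with adjusted p from 0.588 to 0.903 in edgeR, and these genes were singled out after their values were seen. Bhmt2 and Agmat, also sparse, did not follow this pattern. Bhmt2 had 10, 19 and 15 counts in KO libraries and 12, 14 and 9 counts in WT libraries. Agmat had 21, 22 and 13 counts in KO libraries and 18, 23 and 11 counts in WT libraries.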
